A study of Homo sapiens with 7 samples.

Results

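The regions described here are the stretches of 5-hydroxymethylcytosine (5hmC) enrichment next to the ends of human chromosomes. The peaks of 6 libraries were merged where they overlapped or adjoined, and a merged region was taken where its midpoint lay within 2 Mb of an hg38 end of chromosomes 1 to 22. The acrocentric short arms of chromosomes 13, 14, 15, 21 and 22 were left out, which leaves 39 chromosome ends. The rule found 7027 of 198010 merged regions, in 78 Mb or 2.71% of the autosomes. It used position and not how strongly a region was enriched. The cells were SH-SY5Y, a human neuroblastoma line of sympathetic, catecholamine-producing character. All carried a lentiviral short hairpin RNA made in 293T packaging cells, either the control hairpin shNC (3 libraries) or the hairpin shTDP-43 against the RNA- and DNA-binding protein TDP-43 (3 libraries). Per the labels' protocols the TDP-43 knockdown cells were selected with puromycin and then kept in it as a stable line. Whether the 3 libraries of a group come from separate cultures is not in the labels. The p-values therefore speak of the spread among these 6 samples, and that spread may be technical.

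5hmC is made from 5-methylcytosine by the TET dioxygenases, and in many cell types it lies in gene bodies and around gene starts. The assay, hMe-Seal, places an azide-bearing glucose on 5hmC, adds biotin to it and pulls the labelled DNA down for sequencing. The DNA next to telomeres is rich in genes and in CG dinucleotides. Its outermost stretches are patchworks of segments copied between chromosomes, which hold olfactory receptor, zinc finger and tubulin-like genes.

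On chromosomes 1 to 22, control lists 1 to 3 held 116601, 155151 and 125468 peaks, and knockdown lists 1 to 3 held 140974, 118597 and 128957. Control 2 had the most peaks and control 1 the fewest. The sources used here give no read totals for these lists. A list of peaks holds no expression, so it does not check the knockdown, and TARDBP, the gene for TDP-43, was covered by no peak in any library. Of the noradrenergic markers, TH was covered over 42.4 to 56.5% of its length and DBH over 33.1 to 43.4% in the 6 libraries, DDC, GATA3 and ISL1 had means of 23.6%, 23.5% and 9.86%, and PHOX2A was at 0 in all.

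Sequences of gene starts were read from a RefSeq promoter table of build GRCh38.p14, and 5 are printed because the peak lists differ, or agree, over them. Each holds the 250 bases before the gene start, 5′ to 3′ on the gene's strand, in lower case with every CG dinucleotide in capitals. CG reads the same on both strands, and 98.0% of all 21155 coding promoters in the table, counted over 300 bases, hold at least 1. OPRL1, which encodes the nociceptin receptor, is shown at 2 of its starts. RTEL1 encodes a helicase of telomere maintenance, SLC6A19 a neutral amino acid transporter and PDCD1 the immune checkpoint receptor PD-1.
OPRL1 start with peaks in the control lists, chr20:64084749-64084998, plus strand: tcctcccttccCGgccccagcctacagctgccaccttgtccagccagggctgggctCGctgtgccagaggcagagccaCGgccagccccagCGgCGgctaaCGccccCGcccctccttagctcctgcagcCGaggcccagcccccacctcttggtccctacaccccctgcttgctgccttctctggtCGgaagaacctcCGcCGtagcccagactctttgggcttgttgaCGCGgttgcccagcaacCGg
OPRL1 start with peaks in all lists, chr20:64092438-64092687, plus strand: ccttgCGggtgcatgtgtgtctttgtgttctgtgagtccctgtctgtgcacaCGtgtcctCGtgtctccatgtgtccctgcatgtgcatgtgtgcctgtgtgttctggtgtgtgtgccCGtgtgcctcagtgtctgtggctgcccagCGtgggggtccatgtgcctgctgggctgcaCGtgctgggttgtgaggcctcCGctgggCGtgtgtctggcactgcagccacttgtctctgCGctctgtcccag
RTEL1, chr20:63657560-63657809, plus strand: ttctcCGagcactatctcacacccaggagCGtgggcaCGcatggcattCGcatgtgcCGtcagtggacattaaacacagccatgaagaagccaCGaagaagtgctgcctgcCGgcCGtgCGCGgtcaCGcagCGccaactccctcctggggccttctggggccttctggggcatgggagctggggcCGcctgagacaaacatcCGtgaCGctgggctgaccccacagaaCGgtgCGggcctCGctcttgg
SLC6A19, chr5:1201345-1201594, plus strand: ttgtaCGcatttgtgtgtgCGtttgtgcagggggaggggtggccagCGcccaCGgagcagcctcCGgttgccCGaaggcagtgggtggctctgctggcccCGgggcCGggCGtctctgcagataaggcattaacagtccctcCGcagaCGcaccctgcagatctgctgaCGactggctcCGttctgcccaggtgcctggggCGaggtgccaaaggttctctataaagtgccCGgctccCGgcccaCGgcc
PDCD1, chr2:241858895-241859144, minus strand: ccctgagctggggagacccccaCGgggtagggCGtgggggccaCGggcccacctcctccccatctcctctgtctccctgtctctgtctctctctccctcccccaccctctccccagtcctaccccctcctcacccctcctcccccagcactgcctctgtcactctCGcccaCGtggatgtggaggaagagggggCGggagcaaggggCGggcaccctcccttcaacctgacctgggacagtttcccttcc

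The first OPRL1 stretch has 14 CG in its 250 bases and was covered over all 250 in each control library and over 0 in each knockdown library. The second OPRL1 stretch has 9 CG and was covered over all 250 bases in all 6 libraries. The RTEL1 stretch has 18 CG and was covered over 250, 214 and 217 bases in controls 1 to 3 and over 0 in the knockdown libraries. That of SLC6A19 has 17 CG and was covered over 250, 250 and 224 bases in controls 1 to 3, again with 0 in every knockdown library. At PDCD1, with 7 CG, all 250 bases were covered in each control library and 110, 109 and 120 bases in knockdown libraries 1 to 3. These starts were chosen because of this pattern, so the values are a description and carry no test.

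MicroRNA hairpins are short and can lie whole inside a region, and 5 mature sequences from the RefSeq miRNA table (GRCh38.p14) are printed to show which ones do. Seeds, bases 2 to 8, are in capitals. Both arms of MIR126, an endothelial microRNA inside EGFL7, are shown because its hairpin met a peak in all 6 libraries, and miR-429, of the miR-200 family, because it met a peak in 1 control and 3 knockdown libraries. miR-5189-5p and miR-3187-5p are shown because they share the seed CUGGGCA.
hsa-miR-126-5p, chr9:136670616-136670636, plus strand: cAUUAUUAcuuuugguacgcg
hsa-miR-126-3p, chr9:136670653-136670674, plus strand: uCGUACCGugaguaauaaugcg
hsa-miR-429, chr1:1169055-1169076, plus strand: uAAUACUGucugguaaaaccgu
hsa-miR-5189-5p, chr16:88468943-88468966, plus strand: uCUGGGCAcaggcggauggacagg
hsa-miR-3187-5p, chr19:813590-813612, plus strand: cCUGGGCAgcguguggcugaagg

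The ends hold 92 annotated hairpins, of which 14 (15.2%) met a member region and 7 (7.61%) met a peak in all 6 libraries. In the interior of the chromosomes these shares were 12.2% and 4.16% of 1369 hairpins, and the difference was not tested. The 7 were MIR126, MIR6763 in FBRSL1, MIR3176 in CAPN15, MIR5189 in ZFPM1, MIR4740 in BAHCC1, MIR6787 in SLC16A3 and MIR6821 by PIM3. The region over MIR4740 was 3219 bp wide and that over MIR126 was 499 bp, so in the first case the hairpin is a small piece of a long enriched stretch.

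The chromosome ends were more densely covered by 5hmC peaks than the rest of the autosomes. Peaks covered 5.81%, 5.65% and 5.03% of the 78 Mb in controls 1 to 3 and 5.22%, 4.44% and 4.82% in knockdown libraries 1 to 3. In the interior they covered 2.70%, 3.78% and 2.87% in the controls and 3.35%, 2.65% and 3.03% in the knockdown libraries. The ends were higher in every library, by 2.15, 1.49 and 1.75 times in controls 1 to 3 and by 1.56, 1.68 and 1.59 times in knockdown libraries 1 to 3. The log2 ratio of ends over interior was 0.76 ± 0.19 (SD, n = 6) and above 0 in 6 of 6 libraries (two-sided exact sign-flip permutation p = 0.03125, the smallest that 6 libraries can give).

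The ends hold 17.6 protein-coding genes per Mb and the interior 6.35, so the comparison was repeated among 100-kb windows of like gene content. Within quartiles of the share of a window in coding genes the mean log2 ratio was 0.60, and within classes of the number of coding genes per window it was 0.67, each with p = 0.03125 by the same exact sign-flip permutation test (n = 6). In windows without a coding gene, peaks covered 4.96% ± 0.38 of the ends and 2.61% ± 0.44 of the interior (SD, n = 6 libraries). In windows with 5 or more, the values were 5.2% ± 0.88 and 3.17% ± 0.48. The ends were thus higher in windows without genes and in windows dense with them. In all these comparisons the interior holds every other autosomal base, the acrocentric short arms and gaps in the assembly included. Gaps count as uncovered bases on both sides, and their part in the ratios was not tested. The ratio did not differ beyond the spread between the groups, with a log2 difference, knockdown minus control, of -0.15 (two-sided exact permutation p = 0.5 with n = 3 against 3, where the smallest possible p is 0.1).

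**Figure D1:**
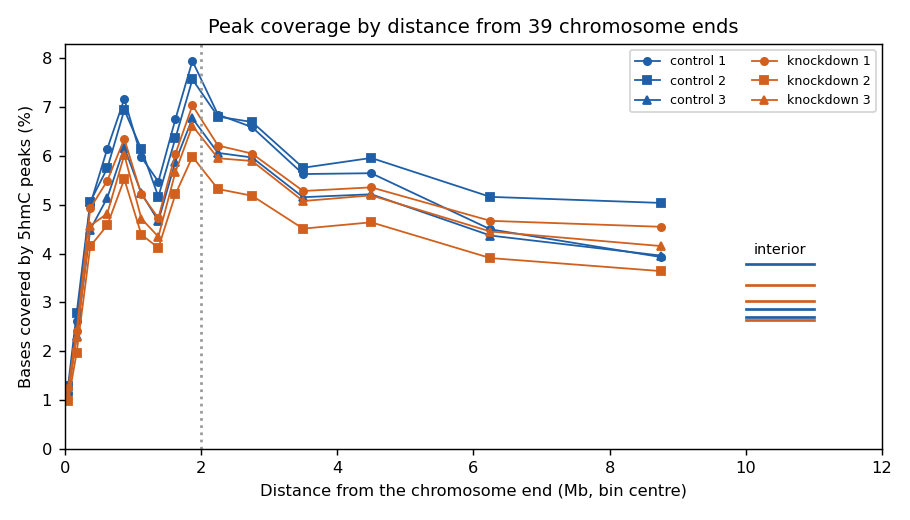
Percent of bases covered by 5hmC peaks (y) in bins of distance from 39 chromosome ends (x, Mb), 1 line per library, with short bars at the right for each library's interior value and a dotted line at 2 Mb. Coverage is lowest in the outermost 100 kb, at 0.975 to 1.30%, and in the bin before 2 Mb it reaches 5.98 to 7.94%.

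The plot of coverage by distance shows that the enrichment did not reach the tips. In the outermost 100 kb peaks covered 1.15%, 1.30% and 1.15% in controls 1 to 3 and 1.24%, 0.975% and 1.09% in knockdown libraries 1 to 3. This stretch lay below the interior value of the same library in 6 of 6. Coverage was 2.57% ± 0.23 in controls and 2.22% ± 0.23 in knockdown libraries (SD, n = 3 each) from 100 to 250 kb, and 6.76% ± 0.52 and 5.96% ± 0.42 from 750 kb to 1 Mb. It was highest from 1.75 to 2 Mb, at 7.43% ± 0.60 and 6.54% ± 0.53. From 2 to 2.5 Mb it was 6.57% ± 0.44 and 5.83% ± 0.46, and from 4 to 5 Mb 5.61% ± 0.37 and 5.06% ± 0.37. The bins from 2 to 5 Mb count as interior here, yet their group means lay above those of the 2-Mb zones, 5.49% and 4.82%. By 7.5 to 10 Mb coverage was 4.31% ± 0.63 and 4.11% ± 0.45. Gene density was 13.6 coding genes per Mb in the outermost 100 kb, lower than the 21.5 from 100 to 250 kb, and from there it took another course than coverage, with 11.8 from 1.75 to 2 Mb. Gaps in the assembly count here as uncovered bases, and their part in the low value at the tips was not tested.

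The boundary at 2 Mb therefore lies at the edge of the bin of highest coverage. Among 418 regions in the last 100 kb inside the boundary, 45.9% had a peak in all 6 libraries and the median width was 664.5 bp. Among 399 regions in the first 100 kb outside, the values were 41.6% and 622 bp.

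Regions near the ends had a peak in all 6 lists more often than regions at large, a difference that was not tested. Of the 7027, 3079 or 43.8% had a peak in all 6 libraries, where the share over all 198010 merged regions was 35.7%. Another 1274 had a peak in 1 library only. Controls 1 to 3 had a peak in 5366, 5233 and 4789 of the regions and knockdown libraries 1 to 3 in 4895, 4291 and 4497. The groups overlapped, since knockdown 1 lay above control 3. The share of members with a peak exceeded that of the other regions in 5 of 6 libraries, control 2 being the exception (two-sided exact sign-flip permutation p = 0.125, n = 6). Median width was 647 bp against 581 bp in the interior, and regions shared by all 6 lists had a median of 1055 bp. Within a list, peaks at the ends were wider than the other peaks, by a median of 52.3 bp ± 8.52 (SD, n = 6) in 6 of 6 libraries. Their fold enrichment over background, the authors' own value for each peak, ranked lower within its list, at the 34.1st to 40.5th percentile by median, against the 49.8th to 50.6th for the other peaks. Peaks near the ends were thus wider but lower in rank than the others of their list.

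Peak summits at the ends lay in protein-coding genes in 64.4 to 65.3% of cases, against 58.2 to 59.4% elsewhere, a difference of 5.90 ± 0.29 percentage points (SD, n = 6, higher in 6 of 6). The ends also have more of their bases in coding genes, 53.2% against 41.8%. Many member regions fell in a few long genes. PTPRN2, a receptor-type phosphatase of secretory vesicles, held 159 members, 82 of them in all 6 lists. DLGAP2, a scaffold of excitatory synapses, held 127, ADARB2, a brain member of the adenosine deaminase family acting on RNA, held 97, and DIP2C held 94. GMDS, an enzyme of GDP-fucose synthesis, held 85.

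The widest regions with a peak in all 6 lists were a stretch of 8259 bp on 17q (chr17:81308739-81316997, hg38), across the noncoding genes LINC00482 and TMEM105, a stretch of 6802 bp on 20q (chr20:62814266-62821067) in COL9A3, a collagen of cartilage, and a stretch of 6618 bp on 10p (chr10:1729547-1736164) in ADARB2. Peaks covered 90.3%, 81.3% and 75.2% of the 17q region in controls 1 to 3 and 97.8%, 96.8% and 95.9% in knockdown libraries 1 to 3. The knockdown libraries were higher there without overlap. In the COL9A3 region the values were 93.0%, 82.8% and 82.5% in controls and 73.7%, 66.2% and 82.0% in knockdown libraries, with every knockdown value below the controls. In the ADARB2 region they were 64.6%, 89.8% and 66.1% against 92.6%, 78.2% and 80.4%, and the groups overlapped.

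The 39 ends differed widely from one another. Coverage of the 2-Mb zone was highest on 17q, at 12.3%, 10.5% and 10.1% in controls 1 to 3 and 10.2%, 9.35% and 9.56% in knockdown libraries 1 to 3. It was 11.5%, 11.3% and 10.0% against 10.1%, 8.80% and 9.50% on 21q, and 9.28%, 10.0% and 8.90% against 10.2%, 8.61% and 9.60% on 2p. The groups overlapped on all 3, and the means over 6 libraries, 10.3% ± 1.04, 10.2% ± 1.03 and 9.44% ± 0.63 (SD), did not lie further apart than that spread.

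At the other end of the order, 1q stood at 0.573%, 0.641% and 0.520% in controls and 0.466%, 0.394% and 0.436% in knockdown libraries. The values on 19q were 0.622%, 0.387% and 0.385% against 0.297%, 0.242% and 0.332%, and on 9p 0.130%, 0.145% and 0.156% against 0.0432%, 0.0738% and 0.0890%. Controls were higher than knockdown libraries without overlap on these 3, at levels under 1%. The number of member regions ran from 10 on 9p to 304 on 10p, with a median of 180. Gene number did not order the ends by coverage. Among the least covered, 19q holds 70 coding genes and 1q 56, but 9p holds 14, 18p 12 and 4q 3, and the well covered 2p holds 9. Across the 39 ends the correlation of coding gene number with coverage was -0.01 (Pearson), given as a description of zones that share the same 6 libraries.

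**Figure D2:**
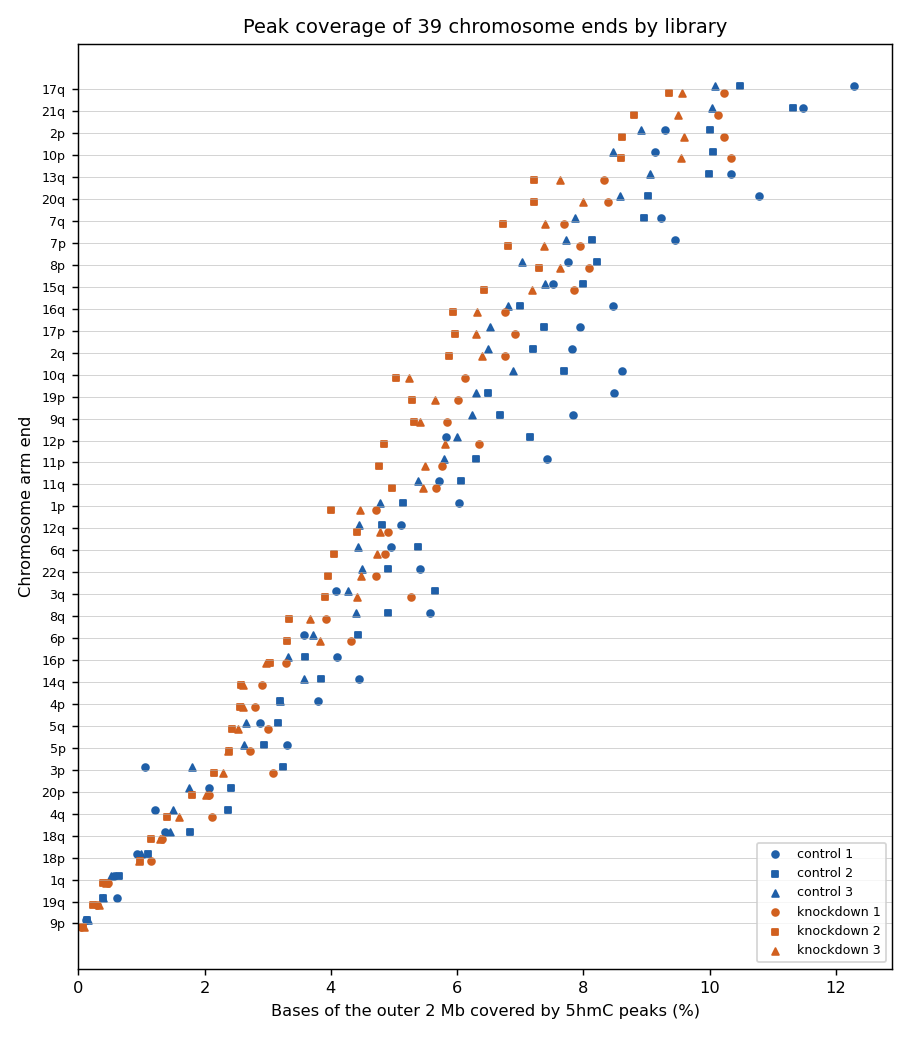
Percent of the outer 2 Mb covered by 5hmC peaks (x) at 39 chromosome ends (y, in order of the mean), 1 point per library, controls in blue and knockdown in orange. Ends run from under 0.2% on 9p to over 10% on 17q, and control points tend to lie right of the knockdown points while overlapping them at most ends.

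The outermost region shared by all 6 lists lay 26.6 kb from the end on 1q, and 14 of the 39 ends had such a region within 100 kb. The median distance was 183.1 kb, and on 9p it was 1916 kb. In all, 114 member regions lay within 100 kb of an end.

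No chromosome end passed the test between knockdown and control. The test was limma with a variance trend on log2(percent covered + 1), centred for each library and fitted over 1409 windows of 2 Mb, in which 0% were called lower and 0% higher at an adjusted p under 0.05. The smallest adjusted p at an end was 0.328 (limma, Benjamini-Hochberg). At an unadjusted p under 0.05, 4 ends (10q, 14q, 13q and 8q) were lower and 0 higher, beside 6.03% and 6.25% of all windows. Of the 39, 30 had a log2 difference below 0, where the share over all windows was 46.1%, and their median was -0.12 against 0.01 for all windows. In 17 ends every knockdown library lay below every control, and in 0 the reverse, beside 15% and 0.284% of all windows. Control 1 carried much of this excess of lower signs. Without it, 16 of 39 differences were below 0. Without control 2, 11 ends were called lower and 1 higher, and so were 129 lower and 161 higher of all 1407 windows in that fit.

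The end of 10q had the lowest log2 difference of the 39. It stood at 8.62%, 7.70% and 6.88% in controls 1 to 3 and at 6.12%, 5.02% and 5.23% in knockdown libraries 1 to 3, with no overlap. Its log2 difference was -0.40 with an SE of 0.13 (limma adjusted p = 0.328). On 14q the values were 4.44%, 3.85% and 3.58% against 2.91%, 2.57% and 2.62%, also without overlap, and the log2 difference was -0.38 with an SE of 0.13 (limma adjusted p = 0.328). The end of 3p leaned the other way, at 1.05%, 3.24% and 1.79% in controls and 3.09%, 2.15% and 2.30% in knockdown libraries, and the groups overlapped. Of all peak-covered bases, controls 1 to 3 had 5.66%, 4.0% and 4.66% in the zones and knockdown libraries 1 to 3 had 4.16%, 4.47% and 4.25%. The means, 4.77% ± 0.84 and 4.29% ± 0.16 (SD, n = 3 each), did not differ beyond the spread (two-sided exact permutation p = 0.5). Without control 1 the difference, knockdown minus control, was -0.0390 percentage points, and without control 2 it was -0.871.

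At the scale of 100 kb, 2 windows of the 556 tested at the ends fell and 0 rose, beside 0.0514% and 0.0286% of all 17510 windows tested. The first lies on 14q (chr14:105700001-105800000, hg38) over constant-region genes of the immunoglobulin heavy chain locus, among them IGHA1, IGHG1 and IGHG3. It was covered over 5.73%, 5.05% and 5.05% in controls 1 to 3 and over 0.751%, 1.17% and 0.806% in knockdown libraries 1 to 3, far apart in every library. The log2 difference was -1.69 (SE 0.22, limma adjusted p = 0.0179), and 7 of 13 alternative settings kept the call. It was lost without centring (adjusted p = 0.0741, limma), without control 3 (adjusted p = 0.208, limma) or without knockdown 1, 2 or 3 (0.0923, 0.125 and 0.154).

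The second window lies on 7q (chr7:159200001-159300000) and holds no coding gene, only the pseudogene PIP5K1P2. It was covered over 4.93%, 6.36% and 5.44% in controls and over 2.62%, 2.201% and 2.08% in knockdown libraries. The groups did not overlap, and the log2 difference was -0.96 (SE 0.15, limma adjusted p = 0.0435). This call held in 4 of 13 alternative settings and was lost without control 3 (adjusted p = 0.368, limma) or without knockdown 1, 2 or 3 (0.225, 0.214 and 0.205).

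Of the 556 windows, 386 had a log2 difference below 0, beside 49.7% of all windows. At an unadjusted p under 0.05, 97 were lower and 14 higher, beside 8.4% and 7.81% of all windows. In 174 every knockdown library lay below every control and in 16 above, beside 14.5% and 3.22%. Without control 1 the signs were even, with 278 of 557 below 0. Without control 2, 98 windows were called lower and 5 higher, and so were 852 lower and 1016 higher of all 16969 windows in that fit. Windows that did not pass the test but were among those of smallest p include one on 16q over ACSF3, an acyl-CoA synthetase, and CDH15, a cadherin of muscle, with 9.56%, 8.84% and 8.46% in controls against 4.98%, 4.69% and 5.03% in knockdown libraries. In the other direction, a window on 22q (chr22:49000001-49100000) stood at 7.93%, 8.97% and 7.45% in controls and 12.1%, 10.7% and 12.7% in knockdown libraries. Neither pair of groups overlapped, and the adjusted p-values were 0.0755 and 0.0956 (limma).

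**Figure D3:**
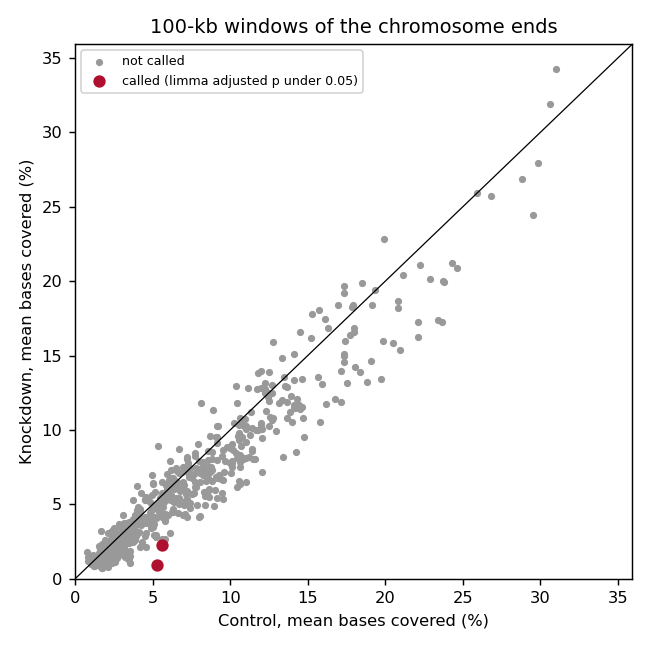
Mean percent of bases covered in the 3 knockdown libraries (y) against the 3 control libraries (x) for 556 windows of 100 kb at the chromosome ends, with the line of equality and called windows in red. More points lie below the line than above it, and the 2 called windows have control means of 5.28% and 5.58%.

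The ends hold 1369 protein-coding genes. Of these, 1036 are at least 5 kb long. No list had a peak in 330 of them, and 621 had a mean coverage of at least 1% and were tested. Coverage was highest at SAMD11, with 56.3%, 48.1% and 45.9% of the gene in controls 1 to 3 and 45.0%, 32.5% and 45.1% in knockdown libraries 1 to 3. MXRA8, an adhesion protein that alphaviruses use as a receptor, had 61.3%, 53.5% and 51.6% against 39.7%, 38.0% and 26.3%. NEU4, a sialidase, had 44.5%, 43.0% and 40.7% against 52.6%, 41.5% and 46.2%. SAMD11 and MXRA8 were lower in the knockdown libraries without overlap, and NEU4 overlapped between groups. Next in order came CRACR2B, COL9A3, MAFK, GPER1, BOP1, GPR146 and SCRT1, with means over 6 libraries from 42.9% down to 32.5%.

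Among the 621 genes, 7 fell and 2 rose, beside 0.506% and 0.179% of all 10076 genes tested. The 7 that fell were C20orf204 (chr20:64033709-64039001), LOC124904094 (chr17:83051187-83061165), LRCOL1 (chr12:132603151-132610582), TCEA2 (chr20:64055596-64072347), SLC17A9 (chr20:62952709-62969585), ABCA7 (chr19:1040107-1065572) and GNPTG (chr16:1351931-1364113). All 7 were listed at 0 in each knockdown library, that is, no peak was called in them, so no fold is given. They passed the filter on mean coverage only through the controls, as LOC128966726 below did only through the knockdown libraries, so that each of these 8 had to differ between groups and their number is a description. All 7 were also called when no filter on low values was set. C20orf204 had 10.7%, 8.80% and 9.64% of its length covered in controls 1 to 3 (limma adjusted p = 0.00356). Its neighbour TCEA2, a transcription elongation factor, had 4.62%, 4.35% and 4.32% (limma adjusted p = 0.00926). Also on 20q, SLC17A9, the vesicular transporter of nucleotides, had 4.56%, 4.97% and 3.09% (limma adjusted p = 0.0122). So 3 of the 7 lie on 1 chromosome end. On 17q, LOC124904094 had 7.86%, 7.84% and 5.60% in controls (limma adjusted p = 0.00468), and on 12q, LRCOL1 had 7.79%, 8.67% and 3.98% (limma adjusted p = 0.00844).

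ABCA7, a lipid transporter on 19p, had 3.00%, 3.29% and 3.46% in controls (limma adjusted p = 0.0268). GNPTG, a subunit of the phosphotransferase that tags lysosomal enzymes, had 2.99%, 2.91% and 3.40% (limma adjusted p = 0.0358). The call of ABCA7 and that of GNPTG each held in 4 of 13 alternative settings and was lost when any 1 of the 6 libraries was left out. Those of SLC17A9, without control 1, 2 or 3, and TCEA2, without control 1 or 3, were lost as well. C20orf204 and LRCOL1 each kept the call in 10 of 13 settings, losing it with peaks of −log10 q of at least 5 (adjusted p = 0.334 for both, limma), and LOC124904094 kept it in 12.

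TALDO1, on 11p, encodes transaldolase, an enzyme of the pentose phosphate pathway, and its coverage rose from 1.84%, 2.18% and 1.77% in controls 1 to 3 to 5.86%, 4.56% and 4.36% in knockdown libraries 1 to 3, with no overlap. Its log2 difference was 1.11 (SE 0.15, limma adjusted p = 0.0273), and the call held in 3 of 13 settings and was lost when any 1 of the 6 libraries was left out. It also holds the widest region with a peak in all knockdown and no control lists (chr11:761529-762666), of 1138 bp. LOC128966726, on 5p, was listed at 0 in the controls and had 10.6%, 6.25% and 7.09% in the knockdown libraries (limma adjusted p = 0.00382). It passed the filter only through the knockdown libraries, and its call held in 12 of 13 settings, that without a filter on low values among them. Of the 621 genes, 391 had a log2 difference below 0, beside 47.8% of all genes tested, and without control 1 this was 312 of 599. At an unadjusted p under 0.05, 76 were lower and 25 higher (limma), beside 7.79% and 5.72% of all genes. The groups did not overlap in 184 genes lower and 27 higher, beside 18.3% and 3.34%.

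**Figure D4:**
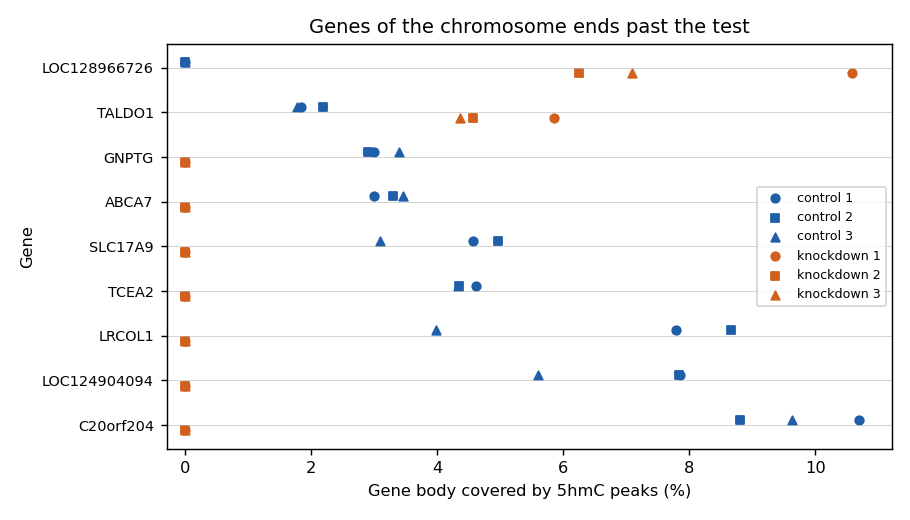
Percent of the gene body covered by 5hmC peaks (x) in each library for the 9 genes of the chromosome ends past the test (y), controls in blue and knockdown in orange. The 7 genes that fell are at 0 in each knockdown library, and LOC128966726 is at 0 in each control.

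Genes were also followed by list, each list chosen with earlier results of these data known. Of the neuronal channel, receptor and synapse genes, 23 lie at the ends, 22 were of at least 5 kb, 20 were tested and 0 rose or fell. Their median log2 difference was -0.05, with 11 below and 9 above 0. The median was 0.02 over all genes tested and -0.11 over the 621 tested at the ends, of which 391 were below 0. BRSK2, a neuronal kinase of polarity, had 22.1%, 18.9% and 17.996% of its length covered in controls and 17.6%, 17.1% and 17.9% in knockdown libraries, just without overlap. CHRNA4, a nicotinic receptor subunit, ran from 7.16 to 24.9% in controls and from 4.34 to 11.02% in knockdown libraries, a wide spread. CACNA1H, a T-type calcium channel, and SSTR5, a somatostatin receptor, had no peak in any library.

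Of the signalling and growth genes, 27 lie at the ends, 16 were tested, and 0 rose or fell. The median log2 difference was -0.17, with 11 below and 5 above 0, beside -0.11 and 391 below 0 for the 621 genes tested at the ends. STK11, a tumour suppressor kinase upstream of AMPK, had 31.3%, 25.6% and 22.9% in controls and 17.1%, 19.2% and 16.97% in knockdown libraries. INPP5A, an inositol phosphatase, had 15.1%, 15.0% and 13.6% against 11.4%, 9.55% and 9.28%. DIP2C had 16.7%, 16.5% and 15.6% against 18.01%, 15.7% and 16.9%. The first 2 did not overlap between groups and the last did, and none passed the test (smallest adjusted p in the list 0.2503, limma).

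Developmental transcription factors were mostly without peaks. Of 21 at the ends 12 were measured, and 8 of these had no peak in any library, beside 31.9% of all measured genes at the ends, among them IRX4, FOXF2, SOX8 and SALL3. Tested were 3 genes, MAFK, ZNF750 and MYT1, and 0 passed, with 1 log2 difference below and 2 above 0. MAFK, a small Maf protein, was covered over 36.0 to 43.1% and ZNF750, a regulator of epidermal differentiation, over 15.4 to 18.9% across the 6 libraries. MYT1, a zinc finger factor of neural cells, had 14.2%, 12.9% and 11.3% in controls and 10.1%, 8.55% and 9.35% in knockdown libraries, without overlap.

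Genes of the duplicated segments were mostly without peaks. Of 37 at the ends, 14 were measured and 1 was tested. Among the 14, 9 had no peak in any library, beside 31.9% of all measured genes at the ends. OR4F5, OR4F16, OR4F3, OR4F15 and OR4F17, olfactory receptors, WASHC1, of the WASH complex, and DUX4, an embryonic transcription factor, were all at 0. TUBB8, a tubulin of the oocyte, was the 1 tested, at 2.35%, 3.78% and 4.36% in controls and 5.81%, 2.92% and 3.35% in knockdown libraries, with overlap. These genes have near-identical copies elsewhere, so a value of 0 is uncertain, and the sources used here do not give how the authors treated reads with several positions. Of the telomere maintenance genes, TERT, the telomerase catalytic subunit, and RTEL1 lie at the ends. TERT was covered over at most 0.988% and RTEL1 over at most 0.887% of its length, too little to be tested.

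Coverage around gene starts dipped just after the start, as in the interior, and its mean over the 6 libraries was above that of the interior in most bins. The exception was the bin from 2200 to 2400 bp downstream, at 6.99% against 7.27%. In single libraries other bins lay below the interior too. From 2000 to 2200 bp this held for control 2 and knockdown 1, 2 and 3. Control 1, at 9.94% against 7.27%, and control 3, at 7.70% against 7.34%, lay above it there. The mean over 6 libraries was 11.8% of bases from 1000 to 800 bp upstream, 5.05% from 200 to 400 bp downstream and 10.6% from 1200 to 1400 bp downstream. Interior starts had 9.77%, 4.16% and 9.02% in the same bins.

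**Figure D5:**
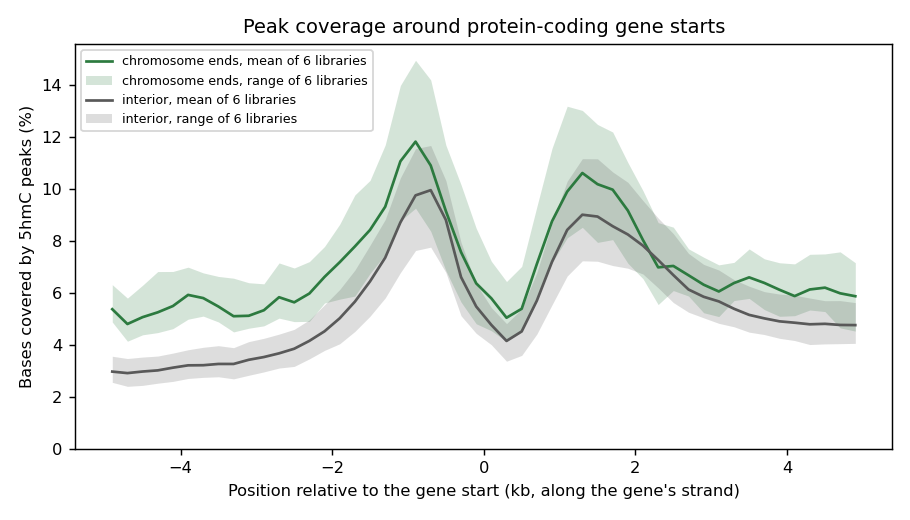
Percent of bases covered by 5hmC peaks (y) in 200-bp bins around protein-coding gene starts (x, kb along the gene's strand), at the chromosome ends and in the interior, with the mean and the range of 6 libraries. Both curves dip just after the start, and the mean for the chromosome ends lies above that of the interior at the peaks on both sides.

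Fewer promoters at the ends met a peak in the knockdown libraries than in the controls. Of 1272 coding promoters of 300 bases (250 before and 50 after the start), 148, 137 and 123 met a peak in controls 1 to 3 and 106, 93 and 97 in knockdown libraries 1 to 3. The groups did not overlap, and the means were 136 ± 12.5 and 98.7 ± 6.66 (SD, n = 3 each, two-sided exact permutation p = 0.1, the smallest possible). In the interior the numbers were also without overlap, with 1886, 1845 and 1655 of 19883 in controls against 1520, 1315 and 1453 in knockdown libraries. The knockdown mean was 0.725 of the control mean at the ends and 0.796 in the interior, and the difference between these ratios was not tested. In each library a larger share of promoters met a peak at the ends, by 1.12 ± 0.67 percentage points (SD, n = 6, 6 of 6 higher, two-sided exact sign-flip permutation p = 0.03125).

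Peaks in all 6 libraries were found at 62 of the 1272 promoters, beside 4.54% of all promoters. Another 12 met a peak in all controls and no knockdown library, beside 0.487%, and 0 the reverse, beside 0.0615%. The 12 belong to ABR, CCDC78, LCN8, LKAAEAR1 (2 starts), LOC107985729, LRRC26, MCRIP2, OPRL1, RTEL1, SLC6A19 and UCKL1, of which OPRL1, RTEL1 and SLC6A19 are printed above. The 2 LKAAEAR1 stretches, on the minus strand, lie at chr20:64084399-64084648 and chr20:64084954-64085203. The latter overlaps the first OPRL1 stretch printed above, so the 12 are not all separate sites. Promoters at the ends are rich in CG, with a median of 30 per 300 bases against 21 in the interior. Those with a peak in all 6 libraries had a median of 11 and those with no peak 32. The order was the same in the interior, with medians of 9 and 22. Among promoters with 10 to 19 CG, 22.4% at the ends and 10.2% in the interior met a peak on average over the 6 libraries. Among those with 30 or more CG, 3.14% and 4.55% did, so the order was the reverse in that class.

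Regions found in every control and no knockdown list were more frequent at the ends than over all merged regions. They numbered 258, or 3.67% of members, beside 1.95% of all merged regions. Regions with the reverse pattern numbered 68, or 0.968%, beside 1.06%. Of these 326 group-specific regions, 79.1% were of the control kind, against 64.0% of those in the interior, and the difference was not tested. The excess was not bounded by the 2-Mb limit. With zones of 5 Mb the control kind made up 3.18% of members and 1.83% of interior regions. In the last 100 kb inside the 2-Mb limit, 9 of 418 regions were of the control and 4 of the knockdown kind. In the first 100 kb outside, 14 and 11 of 399 were, so across the limit the higher, though small, counts lay outside. Leaving out any 1 library gave 316 to 402 regions of the control kind and 84 to 132 of the knockdown kind. With fewer lists the rule is easier to meet, so counts above 258 and 68 follow from it. Without control 1 the control kind made up 4.77% of members and 3.64% of interior regions, and without control 2 it made up 4.97% and 2.69%. The knockdown kind was 1.65% of members and 1.43% of interior regions without control 1, but 1.92% and 3.67% without control 2, so its order turned with the library left out. A list without a peak shows that the caller's threshold was not met, not that 5hmC was absent.

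These group-specific regions were short, with a median width of 565.5 bp for the control kind and 532.5 bp for the knockdown kind. The control kind was most numerous on 20q, with 18, and 14q, with 16, and those ends also had 2 and 4 of the knockdown kind. On 6p and 1q there were 0 of either kind, and on 3p 0 of the control and 2 of the knockdown kind. PTPRN2 held 9 of the control kind and 2 of the knockdown kind among its 159 members. PACS2, a sorting protein on 14q, held 2 of the control and 3 of the knockdown kind among 21. The longest of the control kind lay in RASA3, a GTPase-activating protein for Ras (chr13:114003780-114005378, 1599 bp), and was covered over 43.0%, 86.0% and 27.7% in controls 1 to 3. The next were in NDUFS7, a subunit of respiratory complex I (chr19:1395087-1396553, 1467 bp), outside genes on 10q (chr10:133157549-133159013, 1465 bp), in ATP9B, a phospholipid transporter (chr18:79314568-79315793, 1226 bp), and in PTPRN2 (chr7:158035191-158036387, 1197 bp).

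After TALDO1, the longest of the knockdown kind lay in CHID1 (chr11:870055-871165, 1111 bp), outside genes on 10p (chr10:1742493-1743599, 1107 bp) and 3p (chr3:1410244-1411328, 1085 bp), and in PSMB1, a subunit of the proteasome (chr6:170550741-170551814, 1074 bp). The gene PSMB1 was listed at 0 in the controls and had 4.56%, 2.13% and 1.70% of its length covered in knockdown libraries 1 to 3, which did not pass the test (limma adjusted p = 0.0846). It met the filter on mean coverage only through the knockdown libraries and was named for its region of the knockdown kind, so its values are a description.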

How the data were processed

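hMe-Seal peaks were deposited as 1 list for each of 6 libraries, and the input library was not analysed here. Bowtie2 2.4.4, MACS2 2.2.6, SAMtools and build hg38 are named per the submitters' processing notes, which give here no roles or settings. The authors' lists give each peak's position, score, fold enrichment ratio, −log10 p-value and −log10 q-value. The fold was used only to rank peaks within a list and the −log10 q-value only in a stricter filter (at least 5). Read totals are not given, so no counting interval was computed.

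Peaks were merged, and the percent of bases covered was computed for zones, windows of 2 Mb and 100 kb, and RefSeq (GRCh38.p14) coding genes of at least 5 kb. The gene table used has no exons, so exonic and intronic positions were not analysed here. Windows of 100 kb and genes needed a mean of at least 1%, and windows of 2 Mb, the end zones included, a peak in any library. hg38 chromosome lengths were entered by hand, and all peaks lay within them. log2(percent + 1), less each library's median deviation (from -0.16 to 0.25 for genes), was tested with limma 3.58.1 (R 4.3.3; trend, Benjamini-Hochberg, 0.05), and differences on this scale understate changes at low coverage. The fit was tested on simulated data. Single values were compared by exact permutation. Coverage, permutations and plots were made in Python 3.11.15 with scipy 1.17.1, pandas 2.3.3, numpy 2.4.6 and matplotlib 3.10.9.

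Named were the highest, lowest and called zones, called windows and genes (and those of smallest p), the 10 most covered genes, list members, and the longest shared and group-specific regions. Windows, genes and promoters shown beyond that rule were chosen after their values were seen. The regions and lists were chosen with earlier results of these data known. Some list members are not reported here.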

Additional observations from a re-analysis of the deposited data

How the results depend on the processing

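The higher coverage of the ends kept its sign in every setting, with a log2 ratio of 0.57 for zones of 1 Mb and 0.88 for zones of 5 Mb. Without 1 library it ran from 0.69 to 0.79, where 5 libraries allow no p under 0.0625. Counts of group-specific regions followed the zone: 109 of the control and 31 of the knockdown kind at 1 Mb (3.35% and 0.953% of members, 1.93% and 1.06% of interior regions), and 576 and 181 at 5 Mb (3.18% and 0.998%, against 1.83% and 1.06%). Without 1 library they were 316 to 402 and 84 to 132, under a rule that is easier to meet with fewer lists. The width excess was 42.2 bp at 1 Mb, 63.5 bp at 5 Mb and 64.7 bp with the stricter q-value filter, and the percentile difference of fold was -10.4 at 5 Mb. Leaving out 1 library gave 0 to 11 ends called lower and 0 to 1 higher, 0 to 98 windows lower and 0 to 5 higher, and 3 to 9 genes lower and 1 to 2 higher. The highest counts of lower calls were those without control 2, where calls over the whole genome were 129 lower and 161 higher of 1407 windows of 2 Mb, 852 and 1016 of 16969 windows of 100 kb, and 66 and 37 of 9896 genes. The cause was not tested.

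The 100-kb windows called lower numbered 4 with the stricter filter, 1 each with equal numbers of peaks, a pseudocount of 0.25 or no filter on low values, and 0 without centring. Genes called lower numbered 11 with the stricter filter (97 of all 9447 tested) and 15 without a filter on low values (130 of 16810). Genes called higher numbered 1 with equal numbers of peaks, without that filter and without centring. The sign of 18p turned with the stricter filter (-0.017), equal numbers of peaks (-0.012) and without control 2 (-0.026; the range without 1 library was -0.026 to 0.0999), and that of 2p without control 2 (-0.023; range -0.023 to 0.116). Without centring, 33 ends, 408 windows and 470 genes had a difference below 0. The cause of these shifts was not tested.

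Same-numbered control and knockdown libraries did not deviate together (r = -0.13, -0.08 and -0.01 over 2-Mb windows), so the numbers are not taken to pair them. With the replicate number as a block, 0 windows and 0 genes were called lower or higher (smallest adjusted p 0.107 and 0.0956, limma), with 83 windows lower and 12 higher, and 72 genes lower and 20 higher, at an unadjusted p under 0.05. The ratio of ends over interior was 0.76 with the block (exact sign-flip over 3 pairs, p = 0.25, the smallest possible).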

Other observations

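Regions of the first and last 2 Mb lay at very different depths along their own chromosome. On 9p the outermost region shared by all 6 lists lay 1916 kb from the end, while on 11q it lay 55.0 kb and on 16p 44.0 kb from it. On 4p it lay 520.5 kb and on 14q 533.4 kb from the end.

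The share of windows with any peak was also higher at the ends. Of 780 windows of 100 kb, 83.8% met a peak in at least 1 library, against 74.7% of 27969 interior windows. Among windows with a peak the mean log2 ratio of ends over interior was 0.60. This restriction was chosen after seeing the data, as were the classes by number of coding genes. A smaller share of coding genes of at least 5 kb met a peak at the ends than in the interior in 5 of 6 libraries, by 3.73 ± 2.44 percentage points (SD, n = 6, two-sided exact sign-flip permutation p = 0.0625), while their median coverage was higher in 6 of 6. The median length of these genes was 19938.5 bp at the ends and 33653 bp in the interior, and its part in this was not tested.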
